A study of Mus musculus with 9 samples.

Results

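The genes of 8 Wnt ligands and the 2 genes whose products lipid-modify and carry Wnt proteins were followed by RNA sequencing in mouse bile duct organoids, differentiated and then sorted by a reporter. The members were chosen by gene name: Wnt4, Wnt5a, Wnt5b, Wnt7a, Wnt7b, Wnt9a, Wnt10a, Wnt11, Wls and Porcn, and all 10 were found once each among the 32137 genes of the files. The question was which Wnts the duct cells make themselves. Bile duct organoids are hollow epithelial cultures grown in a gel from the cells that line the bile ducts.

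All organoids came from 1 male mouse of genotype Axin2CreERT2+/-; R26-LSL-tdTom+/- on a mixed background. Every group therefore carries the tamoxifen-inducible Cre recombinase under the control of Axin2, a gene that Wnt signalling switches on, and a tdTomato reporter that becomes active only after Cre has acted. Differentiation took 11 days after an expansion of 2 to 4 days, and all cultures received 3 uM dexamethasone and 500 nM 4-hydroxytamoxifen for the last 24 h. The untreated group held tdTomato-negative cells of organoids that received no R-spondin 1 (Rspo1), which is secreted and keeps Wnt receptors on the cell surface. The Rspo1-negative and Rspo1-positive groups held tdTomato-negative and tdTomato-positive cells of organoids given 100 ng/ml Rspo1 in those 24 h. Each group had 3 libraries, taken at passages 5, 6 and 10, and tdTomato-positive cells without Rspo1 were not among the groups. Since all libraries come from a single animal, p-values between groups measure only how cultures of this mouse vary. The main fit between groups has no term for passage, so this spread includes the differences between passages 5, 6 and 10. P-values between passages measure only how passage differences vary among the groups.

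Total counts per library lay between 23423979 and 37351448, and 22021 to 24578 genes had a count. All 8 biliary epithelium markers examined, among them Krt19 and Epcam, were expressed, with a summed level of 3190 to 4658 FPKM (fragments per kilobase of gene, scaled for sequencing depth, as deposited by the authors). Of the 6 fibroblast and 6 endothelial markers with a row, Lum and Cdh5 were at 0 counts in all 9 libraries, and the summed levels did not exceed 0.161 and 0.298 FPKM. The macrophage markers summed to 13.4 to 27.5 FPKM from Csf1r and Cd68, while the pan-leukocyte gene Ptprc had 0 to 5 counts. The hepatocyte markers summed to 131 to 471 FPKM, nearly all of it Ttr. Alb was present in every library, with 116 to 503 counts (1.92 to 7.38 FPKM), and Apoa1 had 7 to 51 counts. Cyp2e1 had at most 7 counts, Tat at most 4 and Cyp3a11 at most 1.

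Wnt proteins are secreted signals that bind Frizzled receptors on nearby cells. Before a Wnt can leave its cell, Porcn, an acyltransferase of the endoplasmic reticulum, attaches a fatty acid to a conserved serine, and the carrier protein Wls then binds the lipid-modified Wnt and brings it to the cell surface. Wnts such as Wnt7a and Wnt7b are best known for signalling through beta-catenin, while Wnt5a, Wnt5b and Wnt11 are best known for routes that do not use it. In the liver, Wnts are known mainly as products of endothelial cells and macrophages, and biliary epithelium is known to express Wnt7a, Wnt7b and Wnt10a when ducts expand after injury.

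The site that Porcn modifies is shown first because it links the 8 ligands to the 2 secretion genes. Each line gives 24 coding bases of the GENCODE M21 transcripts (GRCm38), 5′ to 3′, with the codon of the acylated serine in capitals, in the order of the ligands' levels.
Wnt7b: tgtcacggtgtgTCAggctcctgt
Wnt4: tgtcacggggtgTCGggctcctgc
Wnt7a: tgccatggtgtgTCAggctcctgt
Wnt5b: tgtcacggagtcTCCgggtcctgc
Wnt10a: tgccacggcaccTCAggcagctgc
Wnt5a: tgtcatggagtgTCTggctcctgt
Wnt9a: tgccatggtgtgTCTggctcctgc
Wnt11: tgccatggggtgTCTggctcctgc
All 8 ligands carried the site. Of the 24 bases, 13 were identical in all 8, and 4 different serine codons occurred. The site was located by searching the translated transcripts for a fixed amino acid pattern. That pattern was cysteine, histidine, glycine, any residue, serine, glycine, serine and cysteine, so much of this identity was set by the search. TCA was found in Wnt7b, Wnt7a and Wnt10a, TCT in Wnt5a, Wnt9a and Wnt11, while TCG was found in Wnt4 and TCC in Wnt5b.

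Wnt7b was the most strongly expressed Wnt of the organoid cells, followed by Wnt4 and Wnt7a, and the other 5 ligands were expressed far below these. Averaged over the 9 libraries, Wnt7b had 157 ± 37.1 FPKM (SD, n = 9), Wnt4 89.1 ± 37.3 FPKM and Wnt7a 29.6 ± 8.55 FPKM. Wls, at 42.6 ± 4.68 FPKM, and Porcn, at 28.1 ± 9.14 FPKM, lay below Wnt7b and Wnt4 in mean level. Wls was above Wnt7a, and Porcn was close to it. Wnt5b (4.98 ± 3.68 FPKM) and Wnt10a (4.07 ± 1.32 FPKM) formed a lower tier. Wnt5a (0.906 ± 0.215 FPKM), Wnt9a (0.263 ± 0.159 FPKM) and Wnt11 (0.0313 ± 0.0243 FPKM) came last. Among all genes with a count, the mean FPKM of Wnt7b stood at the 98.8th percentile and that of Wnt11 at the 26.8th.

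Not all neighbours in this order were apart. Wnt7b was above Wnt4 in all 9 libraries, although their ranges over the libraries overlapped. Wnt4 was above Wls in 8 of 9 libraries, and Wls above Wnt7a in 9 of 9, again with overlapping ranges. Wnt7a and Porcn could not be ordered, since Wnt7a was higher in 5 of 9 libraries. The same was true of Wnt5b and Wnt10a, with Wnt5b higher in 4 of 9. Porcn over Wnt5b, Wnt10a over Wnt5a, Wnt5a over Wnt9a and Wnt9a over Wnt11 were steps with no overlap between the ranges. All 10 genes kept their rank when TMM-scaled counts per kilobase replaced the deposited FPKM. The gene length used there was the one implied by the deposited counts and FPKM, so only the library scaling differed. This agreement was therefore nearly fixed in advance and is no independent check of the order.

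**Figure D1:**
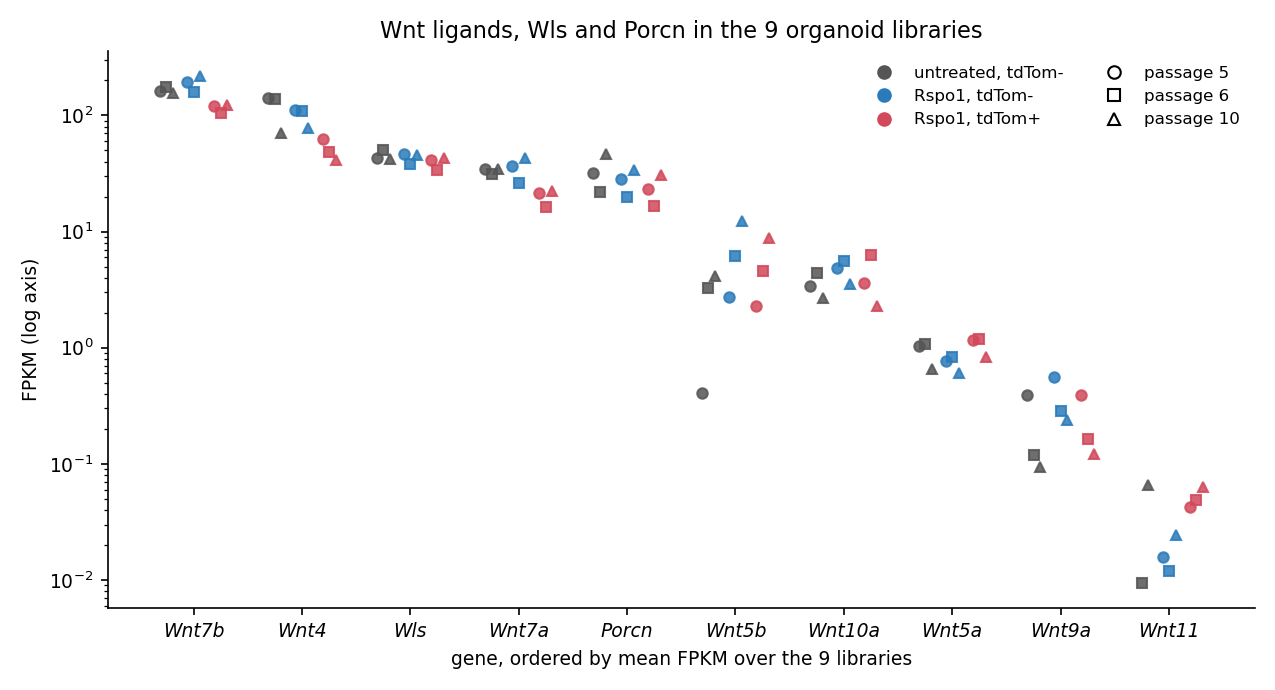
FPKM (log axis) of the 10 genes in each of the 9 libraries, ordered by mean FPKM, with colour for the group and symbol for the passage. Wnt7b and Wnt4 lie highest, Wnt5a, Wnt9a and Wnt11 lie lowest, and the Rspo1-positive libraries are the lowest for Wnt7b, Wnt4 and Wnt7a. Wnt11 in the untreated library of passage 5 is 0 and cannot be drawn on a log axis.

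The Wnt transcripts were thus mostly those of 2 genes. Wnt7b and Wnt4 together made up 82.6% to 88.6% of the summed FPKM of the 8 ligands in every library, and Wnt7a added 8.54% to 12.8%. The sum of the 8 ligands was 344, 355 and 269 FPKM in untreated cells at passages 5, 6 and 10. It was 353, 306 and 356 FPKM in Rspo1-negative cells and 211, 180.9 and 199 FPKM in Rspo1-positive cells. The 3 Rspo1-positive libraries had the 3 lowest sums, and the other groups overlapped. The ratio of Wnt7b to Wnt4 was higher at passage 10 than at passage 5 in each group, going from 1.15 to 2.20 in untreated, from 1.75 to 2.78 in Rspo1-negative and from 1.91 to 2.98 in Rspo1-positive cells.

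**Figure D2:**
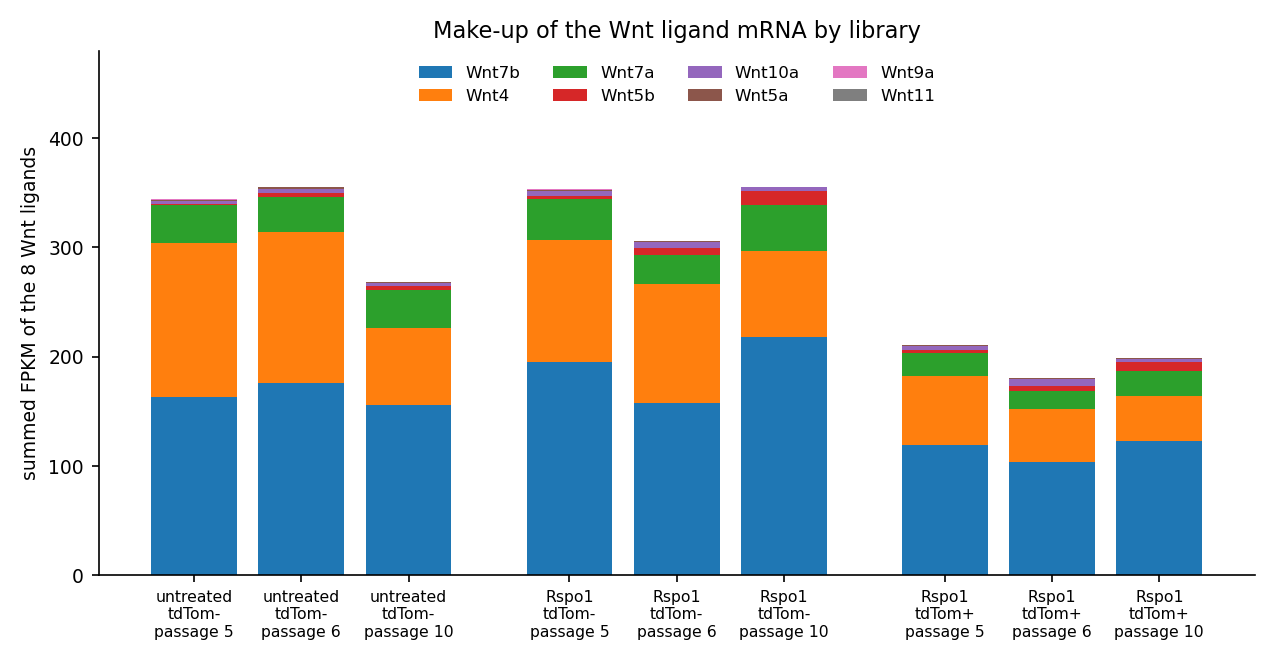
Summed FPKM of the 8 Wnt ligands in each library, with bars stacked by gene. Wnt7b and Wnt4 fill 82.6% to 88.6% of each bar, and the Rspo1-positive bars end between 180.9 and 211 FPKM, below the 269 to 356 FPKM of the other 6.

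Wnt7b (ENSMUSG00000022382, chromosome 15, 85535437 to 85582473, minus strand, GRCm38) was expressed at 163, 176 and 156 FPKM in untreated cells at passages 5, 6 and 10. The Rspo1-negative cells had 196, 158 and 218 FPKM and the Rspo1-positive cells 119.6, 104 and 123 FPKM. Every Rspo1-positive library lay below all 6 others, which overlapped. Such separation was common, since 23.2% of all genes tested did not overlap in CPM (counts scaled by library size) between Rspo1-positive and untreated cells and 45.2% between the Rspo1 groups. These shares apply equally to Wnt4 and Wnt7a. Counts ranged from 10481 to 24190, so that counting error is small beside the spread of cultures. Wnt7b shares 324 exon bases (6.61%) with the antisense gene AU022754, which had 358 to 644 counts, and the strand setting of the counting is not given in the sources used here.

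Wnt4 (ENSMUSG00000036856, chromosome 4, 137277489 to 137299726, plus strand) acts in duct formation and differentiation of several epithelia. Its levels were 141, 138 and 70.8 FPKM in untreated, 112, 109 and 78.4 FPKM in Rspo1-negative and 62.6, 48.7 and 41.3 FPKM in Rspo1-positive cells. The Rspo1-positive group was again below every other library, and passage 10 was the lowest passage in each group.

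Wnt7a (ENSMUSG00000030093, chromosome 6, 91363981 to 91411363, minus strand), the closest relative of Wnt7b, had 34.6, 31.6 and 34.5 FPKM in untreated cells. In Rspo1-negative cells it had 36.9, 26.1 and 42.6 FPKM, and in Rspo1-positive cells 21.4, 16.2 and 22.4 FPKM. The Rspo1-positive libraries did not overlap the others. The ratio of Wnt7b to Wnt7a stayed between 4.52 and 6.41 in the 9 libraries.

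In Rspo1-positive against untreated cells, 2 of the 9 members tested fell by edgeR, Wnt4 and Wnt7a, and 0 rose. None of the 9 had an unadjusted p under 0.05 in the upward direction, and DESeq2 also called 0 higher. The test was edgeR's quasi-likelihood test over 17011 genes, with calls at an adjusted p (Benjamini-Hochberg) under 0.05. Across all genes tested, 2.13% were called lower and 3.07% higher. The median log2 fold change of the 9 members was -0.20, against -0.01 over all genes. These groups differ in Rspo1 and in the tdTomato gate, whose parts cannot be told apart. In bulk RNA, fewer cells of a type and less RNA per cell cannot be told apart either.

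Wnt4 fell to 0.434 of its untreated level, a log2 fold change of -1.20 (SE 0.27, edgeR adjusted p = 0.027), and was lower at all 3 passages. Within passages 5, 6 and 10 the log2 difference was -1.18, -1.53 and -0.76. With passage as a block it was -1.16 (edgeR adjusted p = 0.000619). The 6 fits with 1 library removed had no passage block, and in 4 of them Wnt4 was no longer called. These were the fits without untreated passage 5 (edgeR adjusted p = 0.0938) or 6 (0.0798) and without Rspo1-positive passage 6 (0.13) or 10 (0.11). Wnt7a fell by 0.75 on the log2 scale (SE 0.19, edgeR adjusted p = 0.0475), with within-passage differences of -0.70, -0.99 and -0.60. None of those 6 fits called Wnt7a (adjusted p by edgeR from 0.077 without Rspo1-positive passage 10 to 0.215 without Rspo1-positive passage 6), and with the block the adjusted p was 0.00219.

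Wnt7b had a log2 fold change of -0.52 (SE 0.16, edgeR adjusted p = 0.10) in the same comparison and was not called, although it was lower at all 3 passages (-0.45, -0.79 and -0.32). With passage as a block it was called at -0.53 (edgeR adjusted p = 0.0394), and DESeq2 gave an adjusted p of 0.0168. The block raised the number of members called from 2 to 5, the other additions being Wnt5b and Porcn, which are described below. In the authors' deposited table the adjusted p-values of Wnt4, Wnt7a and Wnt7b in this comparison were 8.12e-12, 2.06e-06 and 0.00192.

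In Rspo1-positive against Rspo1-negative cells, which received the same treatment, Wnt7b, Wnt7a and Wnt4 were all lower, and none of the 9 members tested was called higher, although Wnt5a had an unadjusted p of 0.0478 (edgeR) in that direction. Of all genes, 9.78% were called lower and 14.6% higher here, and the median log2 fold change was -0.41 for the 9 members against 0.03 for all genes. This comparison shares its Rspo1-positive libraries with the preceding one. Wnt4 had a log2 fold change of -0.94 (SE 0.27, edgeR adjusted p = 0.0276), with -0.78, -1.16 and -0.89 within passages 5, 6 and 10. Wnt7a had -0.78 (SE 0.19, edgeR adjusted p = 0.0151), with -0.73, -0.69 and -0.89. For Wnt7b it was -0.69 (SE 0.16, edgeR adjusted p = 0.0127), with -0.65, -0.60 and -0.79. All 3 genes were lower at 3 of 3 passages.

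Fold changes in comparisons with the Rspo1-negative group moved with the GC content of the transcript. Across 14117 genes, which are not independent replicates, the rank correlation with GC content was -0.535 between the Rspo1 groups and 0.527 between Rspo1-negative and untreated cells. The Rspo1-positive and untreated groups, by contrast, gave -0.0117. With transcript length the rank correlations were 0.424, -0.403 and 0.0349, in the same order of comparisons. The GC content of the members is 55.9% for Wnt4, 55.4% for Wnt7a and 59.4% for Wnt7b, against 42.0% for Wls and 46.7% for Wnt5a. Wnt5a also has the longest transcript of the members, with 7010 bases. An offset for GC content and transcript length (the GC offset) covers both at once, and their parts were not tested apart. It brought the differences of Wnt4, Wnt7a and Wnt7b between the Rspo1 groups to -0.83, -0.55 and -0.45. The adjusted p-values by edgeR were 0.101, 0.0783 and 0.114. With passage as a block and the offset together, Wnt4 (-0.81, edgeR adjusted p = 0.00527) and Wnt7a (-0.54, adjusted p = 0.00944) were called and Wnt7b (-0.45, adjusted p = 0.0564) was not.

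Without block or offset, leaving out Rspo1-positive passage 6 ended the calls of Wnt7a (edgeR adjusted p = 0.0607) and Wnt7b (0.0569) between the Rspo1 groups. The other 5 such fits kept them. Wnt4 lost its call there without Rspo1-negative passage 5 (0.0848) or 6 (0.069) and without Rspo1-positive passage 6 (0.0892) or 10 (0.0952). Of the 8 biliary markers, Krt19 (-0.78) and Cldn7 (-0.39) were called lower in the same comparison. Against untreated cells Krt19 was called lower (-1.06, edgeR adjusted p = 0.0127) and Sox9 higher (1.31, adjusted p = 0.0412), while Spp1 had 0.69 (adjusted p = 0.196), so the list did not move one way. The summed FPKM of the 8 was lowest in the Rspo1-positive group, at 3190 to 3277, against 3631 to 4427 in untreated and 3775 to 4658 in Rspo1-negative cells. The part of these marker levels in the differences was not tested.

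In Rspo1-negative against untreated cells, none of the 9 members tested was called in either direction, where 8.0% of all genes were called higher and 13.9% lower. By edgeR 0 of the 9 had an unadjusted p under 0.05, and DESeq2 called 0, while the fit with passage as a block called 2, Wnt5b and Wnt9a. The intervals bound these differences more closely for the abundant ligands than for Wnt5b and Wnt9a. Wnt7b had a log2 fold change of 0.17 (95% interval -0.18 to 0.52), Wnt7a 0.03 (-0.38 to 0.45) and Wnt4 -0.26 (-0.85 to 0.32). Wnt5b had 1.42 (-0.27 to 3.11) and Wnt9a 0.82 (-0.56 to 2.19), so that large differences of these are not excluded. The median over the 9 members was 0.03, and over all genes -0.02. The untreated libraries in this comparison are the same as in the first.

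**Figure D3:**
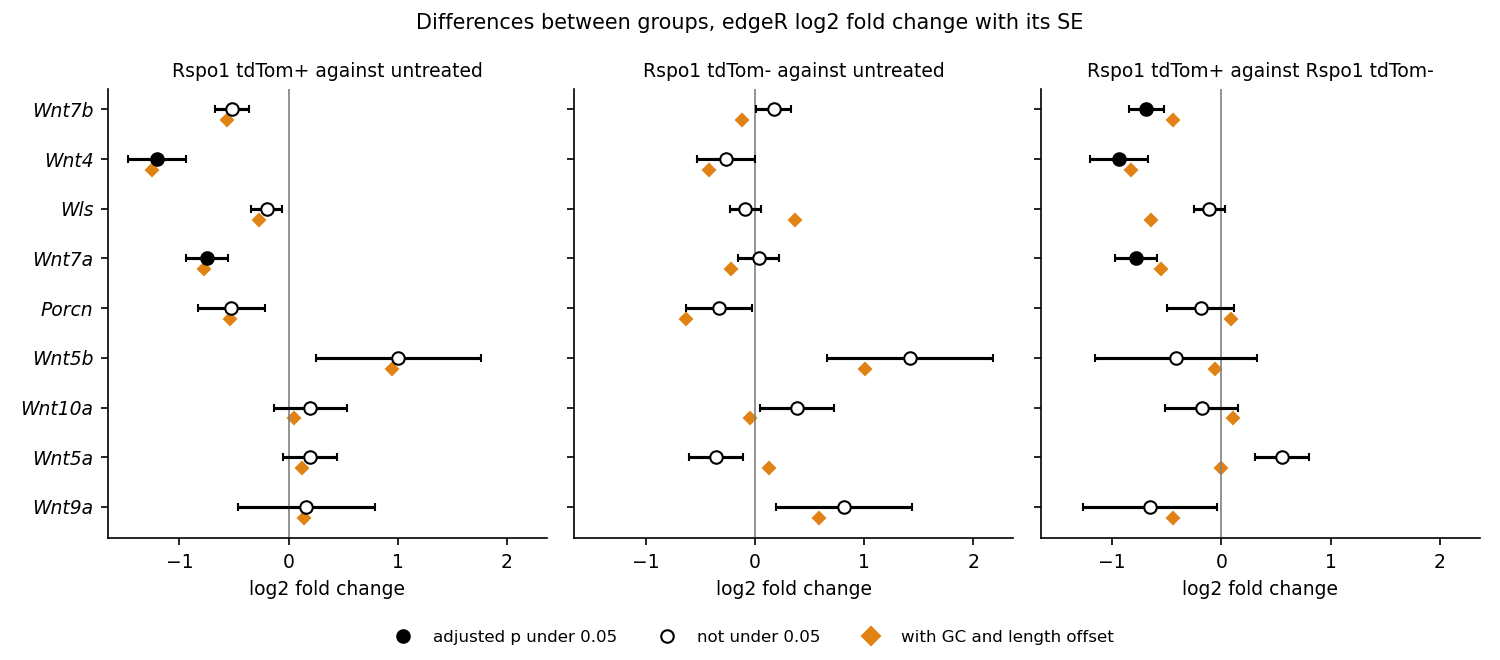
Log2 fold change with its SE for the 9 members tested, in the 3 comparisons between groups. Filled circles have an adjusted p under 0.05, and orange diamonds give the value with the offset for GC content and length. Wnt4 and Wnt7a are filled in both comparisons of Rspo1-positive cells and Wnt7b in one, no circle is filled in the middle panel, and the offset moves Wls and Wnt5a by the largest amounts in the right panel.

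The promoters of Wnt4 and Wnt7a are shown because both genes were lower in Rspo1-positive cells than in either other group. RefSeq windows of 300 bases (250 before to 50 after the start, GRCm38.p6) were at hand for 6 of the 10 members. Both strands were searched for CTTTGAT and CTTTGAA, the core letters to which TCF and LEF factors of the Wnt pathway bind, for the GC box GGGCGG and for TATAAA. Capitals mark GGGCGG or its reverse complement, and runs of capitals longer than 6 bases hold copies that touch or overlap. Wnt4 lies at chr4:137277385-137277684 on the plus strand and Wnt7a at chr6:91411304-91411603 on the minus strand.
Wnt4: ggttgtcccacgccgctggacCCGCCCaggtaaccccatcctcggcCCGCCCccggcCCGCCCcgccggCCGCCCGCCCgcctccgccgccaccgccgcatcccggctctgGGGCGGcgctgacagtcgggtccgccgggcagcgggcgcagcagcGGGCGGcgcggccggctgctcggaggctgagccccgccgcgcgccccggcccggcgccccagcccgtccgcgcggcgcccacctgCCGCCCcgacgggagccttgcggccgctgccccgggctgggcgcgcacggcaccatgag
Wnt7a: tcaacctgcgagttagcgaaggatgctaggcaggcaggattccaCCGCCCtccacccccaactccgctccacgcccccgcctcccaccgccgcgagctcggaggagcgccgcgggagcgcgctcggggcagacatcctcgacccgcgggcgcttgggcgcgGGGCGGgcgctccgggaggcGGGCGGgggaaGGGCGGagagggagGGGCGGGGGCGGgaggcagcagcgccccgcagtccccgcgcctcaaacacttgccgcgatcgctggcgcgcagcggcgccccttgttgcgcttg
The Wnt4 window held 8 copies of GGGCGG and the Wnt7a window 6, and 35.7% of the 32851 promoter windows held at least 1. Neither window held CTTTGAT or CTTTGAA or TATAAA, which were found in 3.73%, 5.14% and 13.6% of all windows. Of the 9 windows of the 6 members, CTTTGAT was in 2, at 1 start site each of Wnt5b and Wnt11, TATAAA in 1, of Wnt11, and GGGCGG in 8. The GC content was 84.3% in the Wnt4 window and 76.0% in that of Wnt7a, against a median of 52.7% over all windows.

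Wnt5b (ENSMUSG00000030170, chromosome 6, 119432531 to 119544347, minus strand), known for its role in cell movement and cartilage growth, was called between passages and, in the fit with the filter on low counts and no passage block, in none of the group comparisons. Its levels at passages 5, 6 and 10 were 0.41, 3.28 and 4.12 FPKM in untreated cells. They were 2.74, 6.19 and 12.4 FPKM in Rspo1-negative and 2.29, 4.59 and 8.79 FPKM in Rspo1-positive cells. In each group passage 5 was lowest and passage 10 highest, and the untreated library of passage 5 stood out with 32 counts.

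Between passages 10 and 5 Wnt5b rose 5.11-fold, a log2 fold change of 2.35 (SE 0.29, edgeR adjusted p = 0.00126). The fit of group and passage had 3 libraries at each passage, 1 of each group and not repeats of that passage. The rise was 10.1-fold in untreated, 4.72-fold in Rspo1-negative and 3.93-fold in Rspo1-positive cells, and it was called in all 9 fits that left out 1 library (2.00 to 2.66). Between passages 6 and 5 the log2 fold change was 1.60 (SE 0.29, edgeR adjusted p = 0.0185), and this call was lost only without Rspo1-negative passage 5 (adjusted p = 0.0865). Wnt5a was not called between passages, and the ratio of Wnt5b to Wnt5a went from 0.399 to 6.22 in untreated, from 3.56 to 20.5 in Rspo1-negative and from 1.97 to 10.7 in Rspo1-positive cells.

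Wnt5b was higher in both Rspo1 groups than in untreated cells at all 3 passages, but passed the test only with passage as a block or, in Rspo1-negative cells, without the filter on low counts (1.48, edgeR adjusted p = 0.00758). Without the block the fold was 2.01 (log2 SE 0.76, edgeR adjusted p = 0.578) for Rspo1-positive and 2.68 (log2 fold change 1.42, SE 0.76, adjusted p = 0.209) for Rspo1-negative cells, both against the same untreated libraries. With the block the log2 fold changes were 1.19 (edgeR adjusted p = 0.0185) and 1.55 (adjusted p = 0.00226). Leaving out untreated passage 5 brought the unblocked values to 0.50 and 0.92. Leaving out the passage 10 library of the Rspo1 group gave 0.38 and 0.77. The authors' deposited table gave log2 fold changes of 1.29 (adjusted p = 0.000662) and 1.67 (adjusted p = 8.59e-07). Wnt5b differed by -0.41 between the Rspo1 groups (95% interval -2.06 to 1.23, edgeR adjusted p = 0.719) and was lower in Rspo1-positive cells at 3 of 3 passages. The authors' deposited table gave -0.39 (adjusted p = 0.0457) there. With the GC offset this difference was -0.06 (edgeR adjusted p = 0.971), and with block and offset together -0.02 (adjusted p = 0.971).

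Wnt10a (ENSMUSG00000026167, chromosome 1, 74791516 to 74804179, plus strand), a ligand with known roles in skin appendages and teeth, had 3.37, 4.43 and 2.67 FPKM in untreated cells. It had 4.90, 5.58 and 3.51 FPKM in Rspo1-negative and 3.59, 6.25 and 2.30 FPKM in Rspo1-positive cells. In every group the order of passages was 6, 5 and 10 from high to low. It was not called in any comparison, apart from passage 10 against 5 with the GC offset (-0.74, edgeR adjusted p = 0.0143). The differences between groups were 0.20 (95% interval -0.54 to 0.95) in Rspo1-positive and 0.38 (-0.36 to 1.13) in Rspo1-negative against untreated cells.

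Wnt5a (ENSMUSG00000021994, chromosome 14, 28504750 to 28527448, plus strand), which guides planar cell polarity and cell movement, stayed near 1 FPKM. It shares 358 exon bases (4.58%) with the antisense gene Gm2670, which had at most 3 counts. Its levels were 1.03, 1.07 and 0.662 FPKM in untreated, 0.769, 0.838 and 0.607 FPKM in Rspo1-negative and 1.16, 1.20 and 0.825 FPKM in Rspo1-positive cells, from 101 to 333 counts. Between the Rspo1 groups the log2 fold change was 0.55 (SE 0.25, edgeR adjusted p = 0.128). With passage as a block it was called at 0.55 (edgeR adjusted p = 0.0195), and with the GC offset it was -0.01. The authors' deposited table gave 0.53 (adjusted p = 0.0345) for Wnt5a there.

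Wnt9a (ENSMUSG00000000126, chromosome 11, 59306928 to 59333552, plus strand), known from joint and limb development, was counted 11 to 68 times per library. Passage 5 was the highest passage in every group, with 0.393 FPKM in untreated, 0.563 FPKM in Rspo1-negative and 0.39 FPKM in Rspo1-positive cells, against 0.0937, 0.241 and 0.123 FPKM at passage 10. Between passages 10 and 5 it fell by 1.60 on the log2 scale (SE 0.32, edgeR adjusted p = 0.0135). Between passages 6 and 5 its difference of -1.29 was not called (edgeR adjusted p = 0.0619). Of the 5 alternatives that kept all libraries 2 called it, among them the GC offset (edgeR adjusted p = 0.0473). Rspo1-negative cells differed from untreated cells by 0.82 (SE 0.62, edgeR adjusted p = 0.379), called at 0.92 with the block (adjusted p = 0.0483) but not with block plus offset (0.68, adjusted p = 0.151).

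Wnt11 (ENSMUSG00000015957, chromosome 7, 98835112 to 98855195, plus strand), a ligand of cell movement in the embryo, was near the limit of detection. It had 0, 1 and 8 counts in untreated, 2, 1 and 2 in Rspo1-negative and 6, 5 and 8 in Rspo1-positive libraries. It was the member that did not pass the filter on low counts, and a fit without the filter called it in no comparison (edgeR adjusted p = 0.424 between the Rspo1 groups). A count of 3 is the most that a library at 0 allows, from counting error only.

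Wls (ENSMUSG00000028173, chromosome 3, 159839672 to 159938664, plus strand), the Wnt carrier, had an SD of 4.68 FPKM around its mean of 42.6 FPKM over the 9 libraries. It had 43.1, 50.04 and 42.2 FPKM in untreated, 46.4, 38.4 and 45.7 FPKM in Rspo1-negative and 41.2, 33.9 and 42.7 FPKM in Rspo1-positive cells. All 3 groups overlapped. Compared with untreated cells, the log2 fold change was -0.20 (95% interval -0.51 to 0.11) for Rspo1-positive and -0.09 (-0.40 to 0.23) for Rspo1-negative cells. Between the Rspo1 groups it was -0.11 (SE 0.14, edgeR adjusted p = 0.597), but -0.64 (adjusted p = 0.0219) with the GC offset. With block and offset together it was also -0.64 (edgeR adjusted p = 0.0056). Wls has the lowest GC content of the 10 members, but the offset also covers transcript length.

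Porcn (ENSMUSG00000031169, chromosome X, 8193848 to 8206525, minus strand), the acyltransferase, had 31.7, 22.1 and 46.9 FPKM in untreated cells at passages 5, 6 and 10. The levels were 28.1, 19.96 and 34.0 FPKM in Rspo1-negative and 23.1, 16.5 and 30.4 FPKM in Rspo1-positive cells. In each group passage 6 was lowest and passage 10 highest, and at each passage the order was untreated, Rspo1-negative, Rspo1-positive. The log2 fold change was 0.44 (SE 0.11, edgeR adjusted p = 0.03) between passages 10 and 5 and -0.49 (SE 0.11, adjusted p = 0.0439) between passages 6 and 5. The second call was lost under upper-quartile scaling (edgeR adjusted p = 0.0501).

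Among the fits made here, the group differences of Porcn were called only with passage as a block. The authors' deposited table gave -0.50 (adjusted p = 0.0037) for Rspo1-positive against untreated cells. In Rspo1-positive against untreated cells the log2 fold change was -0.52 (SE 0.30, edgeR adjusted p = 0.427), and -0.51 (adjusted p = 0.0106) with the block. For Rspo1-negative cells it was -0.33 (SE 0.30, edgeR adjusted p = 0.471), -0.30 (adjusted p = 0.0536) with the block and -0.60 (adjusted p = 0.00278) with block and offset. The summed ligand FPKM per FPKM of Wls was 6.37 to 7.99 in untreated, 7.61 to 7.97 in Rspo1-negative and 4.65 to 5.33 in Rspo1-positive libraries.

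Between passages 10 and 5, with the groups kept as a term, Wnt5b and Porcn rose and Wnt4 and Wnt9a fell, 4 of the 9 members tested. Of all genes, 4.57% were called higher and 4.50% lower between these passages. Wnt4 had a log2 fold change of -0.66 (SE 0.16, edgeR adjusted p = 0.0272), with -0.99 in untreated, -0.45 in Rspo1-negative and -0.57 in Rspo1-positive cells. Wnt7b (0.08, 95% interval -0.25 to 0.41) and Wnt7a (0.12, -0.15 to 0.40) were not called. Between passages 6 and 5, Wnt5b rose and Porcn fell, where 1.16% of all genes were called higher and 1.33% lower. The median log2 fold change of the 9 members was 0.03 and -0.11 for the later and the earlier step, against 0.01 and 0.00 over all genes. A passage holds 1 library of each group, so that passage and anything else that differed between those cultures cannot be told apart. These libraries are not repeats of a passage, and the p-values measure how passage differences vary among the groups.

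Of these passage calls only that of Wnt5b between passages 10 and 5 was kept in every fit that left out 1 library. Wnt4 lost its call in the 6 fits without a library of passage 5 or 10 (adjusted p by edgeR from 0.0561 without Rspo1-positive passage 10 to 0.127 without untreated passage 5). Wnt9a lost it in 5 of these 6, keeping it without Rspo1-negative passage 10 (edgeR adjusted p = 0.0363), with 0.0872 as the largest, without untreated passage 5. Porcn kept its rise only without the passage 6 library of the untreated (edgeR adjusted p = 0.008) or Rspo1-negative group (0.0342), and reached 0.161 without untreated passage 5. Its fall at passage 6 was kept only without untreated passage 6 (0.0473) or 10 (0.0402) and reached 0.215 without Rspo1-negative passage 5. Of the markers of other cell types, Cd68 (-1.39), Ttr (-0.99) and Apoa1 (-1.69) fell between passages 10 and 5, and the biliary marker Sox9 rose (0.93). Cd68 also fell between passages 6 and 5 (-1.24, edgeR adjusted p = 0.0038). Their part in the member values was not tested.

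**Figure D4:**
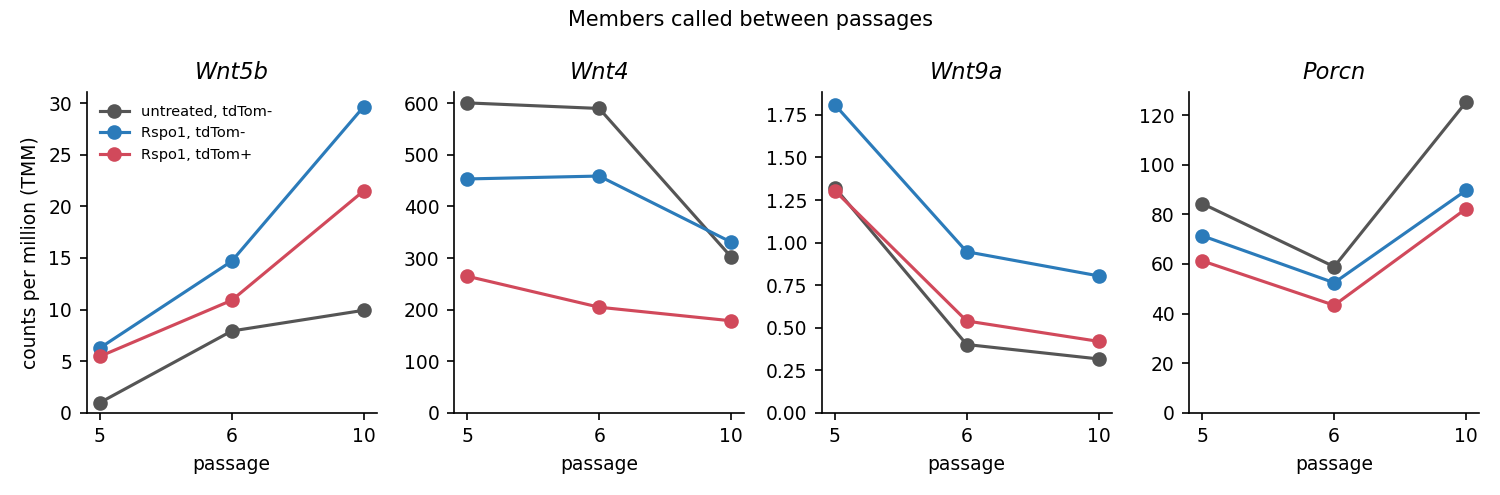
CPM (counts scaled by TMM-corrected library size) at passages 5, 6 and 10 for the 4 members called between passages, 1 line per group and 1 library per point, with passages evenly spaced. Wnt5b climbs in all 3 groups, Wnt9a is highest at passage 5, Wnt4 is lowest at passage 10, and Porcn dips at passage 6.

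The other Wnt genes added little to this picture. Of 11 further ligands looked up, 8 had a row, and 6 of these had at most 8 counts in any library. Their summed level was 0.256 to 0.979 FPKM, which is 0.0725% to 0.363% of the FPKM of all 16 ligands. Wnt2b (6 to 50 counts) and Wnt16 (3 to 60 counts) were tested. Wnt16 had a log2 fold change of -2.36 (SE 0.73, edgeR adjusted p = 0.0407) in Rspo1-negative against untreated cells, a call that the GC offset ended (-1.87, adjusted p = 0.144). Wnt3, Wnt3a and Wnt9b were not analysed here.

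The route by which Wnts and Wls travel was represented by 9 genes, all tested, of which 1 fell in Rspo1-positive against untreated cells, 3 fell in Rspo1-negative against untreated cells and 2 were higher in the Rspo1-positive than the Rspo1-negative group. Over all genes 2.13% and 13.9% were called lower in the former comparisons and 14.6% higher in the latter. The median log2 fold changes of the 9 were -0.21, -0.20 and -0.03, against -0.01, -0.02 and 0.03 over all genes. Scd1, a desaturase that makes the kind of fatty acid that Porcn attaches, had 16.6, 18.2 and 17.97 FPKM in untreated and 9.38 to 14.1 FPKM in the 6 Rspo1-treated libraries. It fell by 0.61 on the log2 scale in Rspo1-positive (SE 0.15, edgeR adjusted p = 0.0442) and by 0.52 in Rspo1-negative cells (SE 0.15, adjusted p = 0.0333), the latter not called with the offset (-0.28, adjusted p = 0.263). Tmed5, a cargo receptor of early secretion, had a log2 fold change of -1.40 (SE 0.24, edgeR adjusted p = 0.00385) in Rspo1-negative against untreated cells. The offset gave -0.57 (adjusted p = 0.0635). Against Rspo1-negative cells, Rspo1-positive cells had 1.34 (edgeR adjusted p = 0.00506), and 0.55 (adjusted p = 0.0736) with the offset. With block and offset together Tmed5 was called in both comparisons, at -0.56 (edgeR adjusted p = 0.0236) and 0.54 (adjusted p = 0.028). Vps26a, a part of the retromer that returns Wls to the Golgi, had -0.76 (edgeR adjusted p = 0.00363) and -0.46 (adjusted p = 0.0261) with the offset in the former comparison. In the latter it had 0.52 (edgeR adjusted p = 0.018), and 0.14 (adjusted p = 0.423) with the offset. With the GC offset 3 other genes of the route were called between the Rspo1 groups, all lower in Rspo1-positive cells, namely Tmed10 (-0.65, edgeR adjusted p = 0.0185), Vps29 (-0.80, 0.0136) and Vps35 (-0.77, 0.0281), and Vps29 was called in Rspo1-negative against untreated cells (0.58, 0.0352).

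Proteins that bind or inactivate Wnts outside the cell were mostly scarce. Of 10 such genes with a row, 6 were under the filter, and of the 4 tested edgeR called 0 between groups, with 0 at an unadjusted p under 0.05. The shares of all genes called were 3.07% higher and 2.13% lower in Rspo1-positive and 8.0% and 13.9% in Rspo1-negative against untreated cells, and 14.6% and 9.78% between the Rspo1 groups. Gpc4, a glypican, was the abundant one at 9.73 to 15.8 FPKM, and Notum, which removes the lipid of secreted Wnts, reached at most 0.514 FPKM. The 6 single-pass and accessory Wnt receptors were all tested, and edgeR called 0 between groups, against the same shares of all genes, where Ror1 (0.78) and Ptk7 (-0.33) had an unadjusted p under 0.05 between the Rspo1 groups. Ryk and Ptk7 were the abundant ones, at 24.8 ± 2.03 and 24.6 ± 3.42 FPKM (SD, n = 9). Ror1, a receptor for Wnt5a, had 0.74 ± 0.278 FPKM, and with passage as a block it was called higher in the Rspo1-positive than the Rspo1-negative group (0.73, edgeR adjusted p = 0.0259). With the GC offset Ror1 was not called there (0.38, edgeR adjusted p = 0.499), nor with block and offset together (0.31, adjusted p = 0.361).

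Among the genes whose log2 CPM over the 9 libraries was most like that of Wnt7b, out of 11660 compared, were Setd3 (Pearson's r = 0.986), Slc35f6 (0.984) and Cldn3 (0.979). For Wls they were Tmem50b (0.948), Gdi2 (0.945), Cmc1 (0.917) and mt-Co1 (0.912). These are descriptions over 9 libraries that share groups and passages.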

How the data were processed

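Per the labels' protocols, libraries from 100 ng of total RNA of sorted cells were read for 75 bp from one end. The submitters' processing notes name Trimmomatic 0.35, FastQC 0.11.2, STAR 2.5.1b, featureCounts, DESeq2 and the GRCm38 build. The annotation and the strand setting are not given in the sources used here. The authors deposited raw counts and FPKM per gene for each library. The ratio of count to deposited FPKM followed a median-of-ratios size factor (0.994 to 1.005 of it) and not the total count, so FPKM gave levels and entered no test. The authors also deposited tables of log2 fold changes and adjusted p-values for 15807 genes, which were only quoted.

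Counts were tested in R 4.3.3 with edgeR 4.0.16: filterByExpr (minimum count 10, minimum total count 15), TMM scaling, a quasi-likelihood fit of all 9 libraries by group, or by group and passage for passage comparisons, and Benjamini-Hochberg adjustment over 17011 genes at 0.05. The SE is the log2 fold change divided by the square root of F. Alternatives were DESeq2 1.42.0, other scalings, no filter, a passage block, an offset for GC content and length, 6 libraries only and leaving out each library. CPM is the count scaled by the TMM-corrected library size. The analysis was tested on simulated counts. Figures were drawn with Python 3.11.15 and matplotlib 3.10.9. Coordinates and exon overlaps came from GENCODE M21, and promoters from RefSeq.

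Replicate numbers pair the libraries, since same-numbered libraries share a passage, per the labels: after removal of group means, log2 CPM correlated at 0.123 to 0.573 in 9 same-passage pairs and -0.476 to 0.0826 in 18 others. Replicates differed by more than counting error (chi-square per gene 57.5 to 528). The members, lists and alternatives were chosen with earlier results of these data known. All 10 members were named, other genes only if called in a group comparison or most correlated with Wnt7b or Wls, and the markers, Tmed10, Vps29, Vps35, Gpc4, Notum, Ryk, Ptk7, Ror1 and Wnt2b were named after their values were seen. One gene that this rule selects is not reported here.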

Additional observations from a re-analysis of the deposited data

How the results depend on the processing

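The order of the 10 genes by level was the same in FPKM and in TMM-scaled counts per kilobase. Both used the gene length implied by the deposited FPKM, so this compares library scalings only. Of 630 recomputed member differences, 526 kept direction and call, 48 lost a call, 20 gained one and 36 changed sign, none of these 36 with a call before or after. The number of members called in Rspo1-positive against untreated cells was 5 with the replicate block, alone or with the GC offset, 1 with only the 6 libraries compared and 0 to 1 with 1 library left out. For Rspo1-negative against untreated cells the number was 2 with the replicate block, alone or with the offset, and 1 without the filter. Between the Rspo1 groups it was 4 with the replicate block, 3 with block and offset, 1 with the offset and 0 to 3 with a library left out. Between passages 10 and 5 it was 1 to 5, and between passages 6 and 5 0 to 3, with a library left out, and 1 under upper-quartile scaling for the latter.

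With the GC offset, the log2 fold change in Rspo1-negative against untreated cells became 0.13 for Wnt5a, -0.22 for Wnt7a, -0.12 for Wnt7b, -0.049 for Wnt10a and 0.37 for Wls. With block and offset together these were 0.15, -0.25, -0.13, -0.04 and 0.36. Between the Rspo1 groups the offset gave -0.0075 for Wnt5a, 0.10 for Wnt10a and 0.092 for Porcn, and block and offset gave -0.016, 0.052 and 0.068. Between passages 10 and 5 Wnt7b had -0.068 with the offset and Wls -0.0013 without the filter. The causes of these sign changes were not tested.

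With 1 library left out, values that changed sign ranged as follows. In Rspo1-positive against untreated cells, Wnt9a ranged from -0.50 to 1.08 and Wnt10a from -0.24 to 0.48. In Rspo1-negative against untreated cells, Wnt7a ranged from -0.10 to 0.23 and Wls from -0.13 to 0.018. Between the Rspo1 groups, Porcn ranged from -0.44 to 0.011, Wnt10a from -0.63 to 0.093 and Wnt5b from -1.04 to 0.22. Between passages 10 and 5, Wls ranged from -0.047 to 0.14, Wnt7a from -0.018 to 0.23 and Wnt7b from -0.066 to 0.20. Between passages 6 and 5, Wnt4 ranged from -0.26 to 0.02 and Wls from -0.27 to 0.021.

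Over all genes, 36.5% of the calls in Rspo1-negative against untreated cells were higher, 49.5% under upper-quartile scaling and 47.8% with the offset. Between the Rspo1 groups this was 59.8% and, with the offset, 43.3%. Depth limits Wnt9a and Wnt11, with at most 68 and 8 counts per library.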
